A study of Mus musculus with 16 samples.

Results

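*Cd59a*, *Plin2*, *Krt15*, *Ifi35*, *Acss1*, *Lyrm7*, *Grtp1* and *Podxl* are 8 of the 29453 genes counted in single cells of chimaeric mouse embryos, treated as a group because each was lower in *Stat3* null than in WT erythroid cells. They were picked on that same contrast, null against WT along the path from Haematoendothelial progenitors and Blood progenitors to Erythroid cells, so their values in those cells are described below without a test. What the choice did not use is every other cell of the embryo, and the question asked there was whether the genes were also lower outside blood. The chimaeras were made from CD1 host blastocysts, which are WT, injected with CD1 *Stat3* null embryonic stem cells that carry a tdTomato reporter and a neomycin resistance cassette in place of several *Stat3* exons. Embryos were taken at the 3 stages from E7.5 to E9.5, and tdTomato-positive (null) and tdTomato-negative (WT) cells were sorted from the same embryos, which had been selected for their donor contribution. Null cells came from the injected, cultured stem cells and WT cells from the host. Genotype therefore cannot be told apart from donor or host origin. Embryos of E7.5 and of E8.5 were pooled, so null and WT cells of those stages shared pools of embryos. The study classed its E7.5 embryos by size, as large or small, and the labels do not say which libraries held which. Each genotype had 2 libraries at E7.5, 2 at E8.5 and 4 at E9.5, named A to D within a group, and the letters do not pair null with WT. The labels do not say which embryos a library came from and the study counts fewer E9.5 embryos than libraries, so the p-values measure the spread between libraries, which may be technical.

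Primitive red cells are the first blood cells of the mouse embryo. They arise in the yolk sac from mesoderm that passes through haematoendothelial and blood progenitor states, fill with embryonic globins and then enter the circulation. STAT3 is a transcription factor activated by cytokine receptors through JAK kinases, and it recognises a palindromic site, TTCNNNGAA, that it shares with STAT5, the main mediator of erythropoietin signalling. The 8 genes belong to unrelated processes. CD59A is a membrane-anchored protein that keeps complement from assembling its lytic pore on the cell's own surface, and podocalyxin (*Podxl*) is an anti-adhesive sialomucin of the CD34 family. *Plin2* encodes perilipin 2, a coat protein of lipid droplets, *Acss1* the mitochondrial enzyme that turns acetate into acetyl-CoA, and *Lyrm7* a chaperone that helps to insert the Rieske iron-sulphur protein into respiratory complex III. *Krt15* encodes a keratin of basal epithelial cells, *Ifi35* an interferon-induced protein, and *Grtp1* a protein with a TBC domain, the type of domain that acts on Rab GTPases.

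The matrix held 41832 cells, of which 37841 in 87 cell types remained without doublet calls and without WT-sorted cells that held a tdTomato UMI (unique molecular identifier, 1 counted transcript). Libraries held 360 to 4327 cells and 20682659 to 138613245 UMIs, and 1.31% of the barcodes occurred in more than 1 library. A tdTomato UMI was seen in 72.3 to 98.3% of the cells of a null library. Levels are given as CPM, the UMIs of a gene per 1000000 UMIs of the cells summed in a library. Since UMIs were counted at the 3′ end of transcripts, transcript length does not enter these levels.

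RefSeq promoter windows of the mouse (GRCm38.p6, 250 bases before the transcription start and 50 after) were given for 6 of the 8 genes, and 3 are shown, that of *Ifi35* for its match to the STAT motif, that of *Grtp1* for its many matches to the KLF motif, and that of *Cd59a* because its levels are followed furthest below. *Krt15* and *Podxl* had no entry. TTCNNNGAA was found in the *Ifi35* window only, against 8.30% of all 32851 windows. CCNCNCCC, the core of the sites of KLF factors such as the erythroid factor KLF1, was found in 5 of 6 windows, all but that of *Lyrm7*, against 49.5% of all windows, and the *Grtp1* window held 9 overlapping or neighbouring matches. AGATAA or TGATAA, the site of GATA factors such as GATA1, was in none of the 6 and in 18.6% of all windows. All motifs were searched on both strands, and a match is a string of letters in the window and no evidence that a factor binds there. Each sequence below runs 5′ to 3′ on the strand of its gene from 250 bases before the start to 30 bases after it, with capitals for TTCNNNGAA in *Ifi35* (first base 8 of the transcript) and for CCNCNCCC or its reverse complement in *Cd59a* and *Grtp1*.
Ifi35, chr11:101448162-101448441, plus strand: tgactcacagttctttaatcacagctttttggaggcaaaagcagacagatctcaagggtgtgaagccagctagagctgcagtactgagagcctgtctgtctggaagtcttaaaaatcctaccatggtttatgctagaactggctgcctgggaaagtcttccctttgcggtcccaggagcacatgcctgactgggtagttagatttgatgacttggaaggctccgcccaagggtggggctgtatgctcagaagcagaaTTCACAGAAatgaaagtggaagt
Cd59a, chr2:104095551-104095830, plus strand: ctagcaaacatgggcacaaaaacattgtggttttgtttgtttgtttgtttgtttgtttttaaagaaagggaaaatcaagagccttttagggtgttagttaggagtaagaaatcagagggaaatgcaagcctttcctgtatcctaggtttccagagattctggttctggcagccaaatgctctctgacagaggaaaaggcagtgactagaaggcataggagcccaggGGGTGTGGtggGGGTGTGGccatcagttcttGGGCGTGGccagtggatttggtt
Grtp1, chr8:13200595-13200874, minus strand: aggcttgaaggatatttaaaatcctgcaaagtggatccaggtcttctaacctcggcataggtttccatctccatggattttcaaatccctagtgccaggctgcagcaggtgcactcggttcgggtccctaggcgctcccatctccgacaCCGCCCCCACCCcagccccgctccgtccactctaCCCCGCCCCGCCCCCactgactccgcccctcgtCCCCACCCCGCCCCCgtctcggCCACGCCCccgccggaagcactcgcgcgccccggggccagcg

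All 8 are protein-coding genes. On GRCm38, *Cd59a* (ENSMUSG00000032679) lies on chromosome 2 from 104095801 to 104115354, *Acss1* (ENSMUSG00000027452) on chromosome 2 from 150618105 to 150668500, *Plin2* (ENSMUSG00000028494) on chromosome 4 from 86648386 to 86670060, *Podxl* (ENSMUSG00000025608) on chromosome 6 from 31519488 to 31563981 and *Grtp1* (ENSMUSG00000038515) on chromosome 8 from 13172022 to 13200620. The other 3 are on chromosome 11, which also carries *Stat3* (100885098 to 100939540). *Krt15* (ENSMUSG00000054146, 100131758 to 100135928) is 0.749 Mb from *Stat3*, *Ifi35* (ENSMUSG00000010358, 101448407 to 101458698) 0.509 Mb and *Lyrm7* (ENSMUSG00000020268, 54826866 to 54860916) 46.0 Mb. *Krt15* and *Ifi35* thus sit close to the altered locus, and the part of this position in their levels was not tested. Of the 62 genes within 1 Mb of *Stat3* that were tested outside blood, 1 was called lower and 1 higher in null cells. Their median log2 fold change was -0.01, and 1.28% of all genes tested there were called lower. *Stat5a*, which overlaps *Stat3*, had a log2 fold change of -0.59 outside blood over all stages (edgeR adjusted p = 0.152). The count does not cover Erythroid cells, where the log2 fold change of *Stat5a* was -2.23 at E8.5. *Grtp1* overlaps *Lamp1* and *Ifi35* overlaps the antisense gene *Gm11626*, both on the opposite strand.

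In WT cells of the chimaeras the genes differed widely in how much they belonged to erythroid cells. Means and SD here cover the libraries with more than 15 cells of the type. Over 93 combinations of WT cell type and stage with at least 50 cells, *Krt15*, *Ifi35* and *Plin2* had their highest and second highest levels in Erythroid cells of E9.5 and E8.5. *Krt15* reached 316 ± 125 CPM (SD, n = 4 libraries) in E9.5 and 170 ± 111 (n = 2) in E8.5 Erythroid cells, which overlapped, then 55.1 CPM over all E8.5 Chorioallantoic-derived erythroid progenitors, while the median over all combinations was 0.734 CPM. Outside blood its highest level was in Surface ectoderm, 21.4 ± 2.96 CPM at E8.5 (n = 2) and 16.8 ± 5.30 at E9.5 (n = 3), with overlapping libraries. *Ifi35* stood at 49.7 ± 5.29 CPM (n = 4) and 45.4 ± 10.6 (n = 2) in E9.5 and E8.5 Erythroid cells, again overlapping, and at 26.4 ± 3.63 (n = 4) in E9.5 EMP (erythro-myeloid progenitors), against a median of 0.374 CPM. *Plin2* was at 216 ± 46.0 CPM (n = 4) and 160 ± 2.25 (n = 2) in the same Erythroid cells, which did not overlap, but its median over all combinations was as high as 33.7 CPM.

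*Acss1* was highest in E9.5 Erythroid cells, 25.3 ± 4.41 CPM (n = 4), which lay above E9.5 Amniotic ectoderm at 15.98 ± 3.31 (n = 2) and E8.5 Erythroid cells at 7.21 ± 3.62 (n = 2). *Grtp1* was highest in E7.5 Visceral endoderm, 47.0 ± 13.5 CPM (n = 2), and overlapped there with E8.5 Erythroid cells at 45.3 ± 5.31 (n = 2). The other 3 genes also had their highest levels in cells other than Erythroid cells. *Cd59a* was at 213 ± 17.4 CPM (n = 2) in E9.5 Megakaryocyte progenitors, 188 ± 54.4 (n = 2) in E7.5 Visceral endoderm, 150 ± 49.4 (n = 2) in E8.5 Mesenchyme and 138 ± 22.4 (n = 2) in E8.5 Erythroid cells, and the libraries of each neighbouring pair in this order overlapped. Over all 4 WT libraries, small ones included, the level in Megakaryocyte progenitors was 207 ± 48.6 CPM (n = 4). *Podxl* was highest in E8.5 Amniotic ectoderm, 357 ± 10.8 CPM (n = 2), and *Lyrm7* was low everywhere, with 8.36 CPM in E7.5 ExE ectoderm as its highest and 1.89 CPM as its median. In E8.5 Erythroid cells *Lyrm7* was at 7.12 ± 3.42 CPM (n = 2).

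The genes whose WT levels followed each member most closely, by Pearson's r of log2(CPM + 1) over the 93 combinations among 9845 genes with a mean of at least 5 CPM, differed between members. They were *Gpx1* (r = 0.82), *Lyl1* (0.82) and *Bmp2k* (0.81) for *Ifi35*, *Rfesd* (0.79), *Slc25a37* (0.78) and *Mgst3* (0.77) for *Krt15*, *Wdr26* (0.70), *Slc43a3* (0.70) and *Hebp1* (0.69) for *Plin2*, and *Ppox* (0.57), *Cltb* (0.54) and *Mgst3* (0.53) for *Acss1*. For *Cd59a* they were *Ctsd* (0.76), *March2* (0.75) and *Itsn2* (0.72), for *Grtp1* *Reep6* (0.67), *Tst* (0.63) and *Apeh* (0.61), and for *Podxl* *Pkp2* (0.83), *Krt18* (0.77) and *Lrrn4* (0.76). Those of *Lyrm7* were *Gm10260* (0.74), *Cwc22* (0.73) and *Rpl35* (0.72). The combinations share libraries and depth, so these r describe the table and carry no test.

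E8.5 Erythroid cells were numerous in both genotypes, with 594 and 131 cells in null libraries A and B and 426 and 622 in WT libraries A and B. The label held against its markers. All 12 erythroid markers were detected in both genotypes, and their summed level was 101121 to 204123 CPM in null and 139021 to 227407 CPM in WT libraries, with haemoglobins making up most of it. Single markers differed, as *Hba-a2* did with 2604 CPM in null and 635 CPM in WT cells, while its near-identical copy *Hba-a1* was at 11678 and 16141 CPM, so the count of either copy is uncertain. Their part in the results was not tested. Myeloid markers summed to at most 1.02 CPM and megakaryocyte markers to 14.7 to 28.2 CPM in any library. Endothelial markers summed to 73.7 to 95.2 CPM in null and 45.7 to 64.6 CPM in WT libraries, and yolk sac endoderm markers to 2.90 to 7.64 CPM. The part of the endothelial difference in the members' levels was not tested.

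*Cd59a* stood at 13.7 and 7.16 CPM in the null libraries and at 154 and 122 CPM in the WT libraries, a 13.2-fold difference of the means. It was seen in 267 of 725 null cells with 373 UMIs and in 988 of 1048 WT cells with 4905 UMIs. *Krt15*, the keratin, was at 0.407 and 0 CPM against 249 and 91.8 CPM. It was seen in 818 of 1048 WT cells with 6214 UMIs, and in 1 of 725 null cells with 10 UMIs, and this cell held no tdTomato UMI. *Krt15* was thus all but undetected in null Erythroid cells, at 0.338 CPM over both libraries, and no fold is given for it.

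The mitochondrial genes were low in both genotypes. *Acss1* was at 1.63 and 1.59 CPM in null and 9.76 and 4.65 CPM in WT libraries (4.48-fold), and *Lyrm7* at 1.301 and 1.39 CPM against 4.70 and 9.54 CPM (5.29-fold). *Ifi35* was at 13.5 and 8.94 CPM in null and 52.9 and 37.9 CPM in WT libraries, 4.05-fold apart. *Grtp1* (14.9 and 16.1 CPM against 49.0 and 41.5 CPM), *Podxl* (11.6 and 10.9 against 26.7 and 32.2) and *Plin2* (61.1 and 68.8 against 161 and 158) differed by 2.92-fold, 2.61-fold and 2.46-fold, the smallest differences. Neither null library reached a WT library for any of the 8, which was so for 8.65% of the 7305 genes with a mean of at least 5 CPM in these cells (*Acss1* and *Lyrm7* lie under that mean), and nothing is read from this since the genes were chosen on it.

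**Figure D1:**
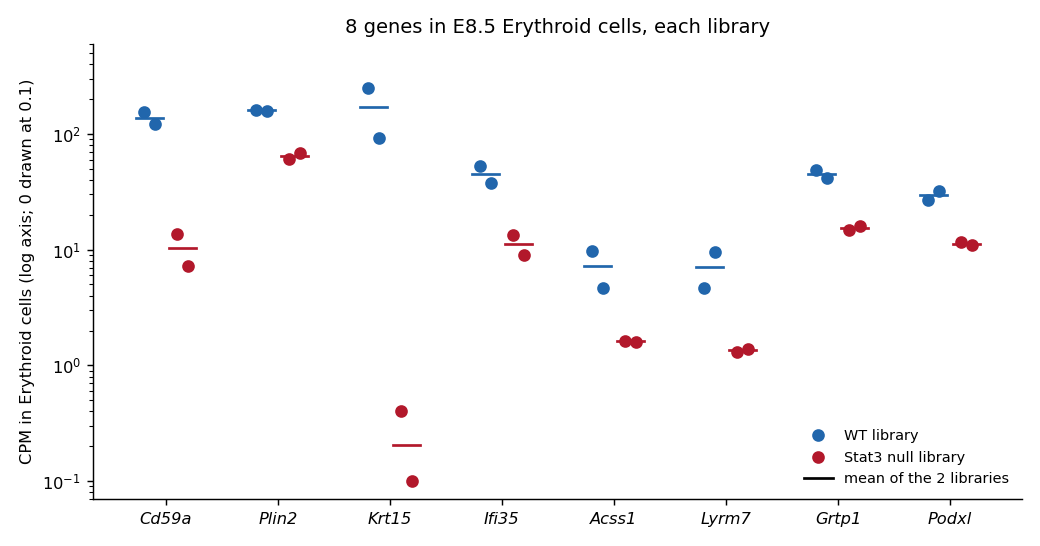
CPM of the 8 genes in E8.5 Erythroid cells (log axis, 0 drawn at 0.1), 1 point per library, with short lines at the mean of the 2 libraries of a genotype. Null libraries lie below WT libraries for every gene, by 2.46-fold for *Plin2* up to 13.2-fold for *Cd59a*, and *Krt15* is at 0.407 and 0 CPM in null libraries.

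Some cells of the null libraries held no tdTomato UMI. In E8.5 Erythroid cells a tdTomato UMI was found in 69.7% of the cells of null library A and 37.4% of those of null library B, fewer than in the libraries as a whole. In null library A *Cd59a* was at 14.1 CPM in the 414 cells with a tdTomato UMI and at 12.8 CPM in the 180 cells without, *Ifi35* at 13.3 and 13.8 CPM, *Plin2* at 59.9 and 64.0 CPM and *Grtp1* at 14.996 and 14.7 CPM. In null library B *Cd59a* was at 9.28 CPM in 49 cells with and 5.70 CPM in 82 cells without a tdTomato UMI. All these values lay below the WT levels above, whether or not a tdTomato UMI was seen.

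Haemoglobin took up a median of 20.4% and 9.21% of the UMIs of a cell in null libraries A and B and of 22.4% and 13.4% in the WT libraries A and B, which overlapped. When cells were split into 3 bins by that share and the cells of a genotype summed within a bin, all 8 genes were lower in null cells in all 3 bins. Libraries filled the bins unequally. The lowest bin held 100 and 105 cells of null libraries A and B and 32 and 354 cells of WT libraries A and B, and the highest bin 263 and 3 null and 258 and 67 WT cells, so a trend over bins cannot be told apart from a difference between libraries. *Cd59a* was at 8.22, 13.4 and 14.9 CPM in null and 109, 138 and 162 CPM in WT cells from the lowest to the highest bin, and *Ifi35* at 11.3, 12.05 and 14.3 CPM against 28.5, 50.6 and 55.5 CPM. The mean log2 difference over bins was -3.46 for *Cd59a*, -1.33 for *Plin2*, -1.75 for *Ifi35*, -1.82 for *Acss1*, -2.03 for *Lyrm7*, -1.53 for *Grtp1* and -1.32 for *Podxl*.

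At E7.5 the Erythroid label held 17 null cells, all of 1 library, and 5 WT cells. *Cd59a* had 2 UMIs (2.17 CPM) in those null cells and 23 UMIs (95.4 CPM) in those WT cells. In the progenitors of that stage *Cd59a* and *Lyrm7* were far apart between the genotypes. In E7.5 Blood progenitors *Cd59a* was at 27.6 and 36.7 CPM in null and 117 and 101 CPM in WT libraries, and *Lyrm7* at 0.908 and 0.816 CPM against 7.07 and 6.54 CPM. In E7.5 Haematoendothelial progenitors, of which WT library A held 8 cells, *Cd59a* was at 76.8 and 63.6 CPM in null and 147 and 114 CPM in WT libraries and *Lyrm7* at 0.562 and 1.34 against 6.26 and 7.12 CPM. In Haematoendothelial progenitors *Grtp1* was at 4.22 and 2.01 CPM in null and 6.26 and 5.62 CPM in WT libraries. Counts in these cells were small, 18 UMIs in null and 17 in WT for *Grtp1* and 4 and 21 for *Lyrm7*. In Blood progenitors *Podxl* was at 66.8 and 94.6 CPM against 93.5 and 84.2 CPM, *Ifi35* at 4.54 and 5.71 against 4.89 and 4.91 CPM, and *Plin2* at 25.8 and 29.4 against 42.4 and 34.3 CPM. *Krt15* and *Acss1* were at or near 0 in both genotypes. Yolk sac endoderm markers summed to 0.816 to 3.89 CPM in null and 16.3 to 38.4 CPM in WT Blood progenitors, and their part in the *Cd59a* difference was not tested.

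At E9.5 only 19 null cells carried the Erythroid label, in 4 libraries of 2 to 9 cells, against 380 WT cells, so these levels are rough. Megakaryocyte markers summed to 12.4 to 296 CPM in null and 19.9 to 39.1 CPM in WT libraries, with *Plek* at 104 against 2.15 CPM, and the endothelial marker *Kdr* was at 13.02 against 0.807 CPM, and their part in the members' levels was not tested. *Krt15* had no UMI in the 19 null cells, which allows up to 6.51 CPM, and 208 to 465 CPM in the WT libraries. *Acss1* had 1 UMI in the null cells and 21.5 to 31.7 CPM in the WT libraries. *Cd59a*, in contrast, was at 24.9 to 95.04 CPM in null and 85.9 to 112 CPM in WT libraries, which overlapped, and *Plin2* and *Grtp1* overlapped as well. *Ifi35* was at 0 to 33.5 CPM against 42.8 to 54.8 CPM.

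Outside blood the picture split the 8 genes into those that stayed level and those that leaned lower. UMIs of all cells outside the 7 blood labels and outside the extra-embryonic ectoderm and endoderm were summed per library and compared over 16 libraries with stage as a term. None of the 8 passed an edgeR adjusted p of 0.05 over all genes, against 1.28% of the 15365 genes tested that were called lower. At an unadjusted p under 0.05 there were 3, *Cd59a*, *Krt15* and *Lyrm7*, all lower, against 7.07% of genes. DESeq2 called these 3 lower, against 2.2% of genes, and limma-voom called *Krt15* alone, against 1.44%.

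*Plin2* and *Grtp1* were level. At E7.5 *Plin2* was at 26.3 ± 0.419 CPM in null and 25.8 ± 6.17 CPM in WT libraries (SD, n = 2 each). E8.5 libraries had 37.7 ± 2.53 and 36.5 ± 1.12 CPM (n = 2 each) and E9.5 libraries 39.2 ± 2.56 and 40.5 ± 3.17 CPM (n = 4 each). Its log2 fold change over all stages was 0.02, with a 95% interval from -0.10 to 0.14. *Grtp1*, at 7.74 to 9.17 CPM in null and 7.87 to 9.25 CPM in WT as means by stage, had a log2 fold change of 0.01 (-0.11 to 0.12). For *Podxl* (-0.16, from -0.43 to 0.12, and 0.19 at E8.5 alone), *Acss1* (-0.13, from -0.50 to 0.24) and *Ifi35* (-0.23, from -0.69 to 0.23) the intervals were wider and did not reach a 2-fold decrease. *Acss1* and *Ifi35* were at 0.420 to 1.72 and 0.368 to 0.806 CPM there as means by stage, below their WT Erythroid levels of E8.5 and E9.5, whereas null Erythroid cells of E8.5 had 1.63 and 1.59 CPM of *Acss1*, within the same range.

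*Cd59a* was lower in every null library than in every WT library at all 3 stages, as were 0.82% of genes (18.0%, 16.4% and 3.44% at the single stages). At E7.5 it stood at 10.9 and 11.8 CPM in null against 29.98 and 13.6 CPM in WT libraries. The E8.5 libraries were at 25.4 and 25.2 against 36.8 and 37.2 CPM, and those of E9.5 at 20.6 to 22.9 against 23.1 to 27.8 CPM. Its log2 fold change over all stages was -0.43 (SE 0.12, 95% interval -0.70 to -0.17, edgeR adjusted p = 0.0901), and by stage -0.88, -0.53 and -0.21, without a difference between stages past the threshold (edgeR genotype by stage term, unadjusted p = 0.0852, adjusted p = 1.00). The E7.5 value was -0.25 without WT library A and -1.34 without WT library B. Taken 1 stage at a time none of the members was called, against 0.0304%, 0.0142% and 0.355% of genes called lower. The paralog *Cd59b*, whose reads could be split from those of *Cd59a* imperfectly, had a log2 fold change of -0.48 (edgeR adjusted p = 0.0715). WT library A of E7.5 stood apart from WT library B, and without it the change was -0.31 with an edgeR adjusted p of 0.00596.

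*Lyrm7* was far lower at the first 2 stages and level at the third. E7.5 null libraries had 0.526 and 1.002 CPM and E7.5 WT libraries 3.98 and 3.91 CPM. E8.5 libraries had 1.09 and 1.17 against 3.14 and 5.38 CPM, so the groups overlapped at neither stage. Every null library was also below every WT library for 18.0% of genes at E7.5 and 16.4% at E8.5. At E9.5 the 4 null libraries were at 0.972 to 1.18 CPM and the 4 WT libraries at 0.978 to 1.26 CPM, and overlapped. The log2 fold changes were -2.47 (SE 0.37, edgeR adjusted p = 0.115), -1.91 (SE 0.31, 0.248) and -0.11 (SE 0.15, 0.904), and -1.07 over all stages (SE 0.31, adjusted p = 0.0853). The test of the difference between stages, an edgeR genotype by stage term, gave an unadjusted p of 1.51e-05 and an adjusted p of 0.0579, which missed the threshold that 3 genes, 0.0195% of those tested, met. In null cells the level hardly moved with stage, whereas in WT cells it fell from 3.94 ± 0.0490 CPM at E7.5 (n = 2) to 1.14 ± 0.145 CPM at E9.5 (n = 4).

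**Figure D2:**
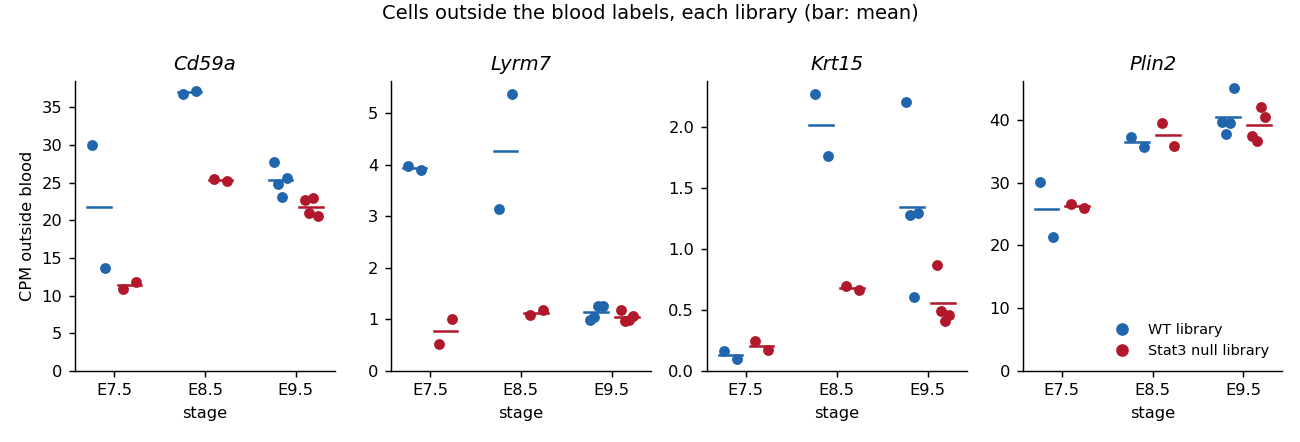
CPM outside the blood labels at each of the 3 stages for *Cd59a*, *Lyrm7*, *Krt15* and *Plin2*, 1 point per library and a short line at the mean, each panel with its own axis from 0. *Cd59a* is lower in every null library. *Lyrm7* is lower at E7.5 and E8.5 and level at E9.5 (about 1 CPM in both). *Krt15* separates at E8.5, where 16.4% of genes were lower in every null library, and *Plin2* overlaps at every stage.

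*Krt15* was near 0 outside blood, and too low to be tested at E7.5, with 0.244 and 0.167 CPM in null and 0.161 and 0.0977 CPM in WT libraries. In E8.5 libraries it was at 0.691 and 0.660 CPM in null and 2.27 and 1.76 CPM in WT, which did not overlap (16.4% of genes). In E9.5 libraries *Krt15* was at 0.405 to 0.868 and 0.606 to 2.21 CPM, which overlapped. The log2 fold change over all stages was -1.12 (SE 0.29, edgeR adjusted p = 0.0565). Haemoglobin outside blood was at 1187 to 1357 CPM in WT and 275 to 1321 CPM in null libraries at E8.5 and at 266 to 1158 against 9.55 to 94.4 CPM at E9.5. Its part in the *Krt15* difference was not tested.

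In Surface ectoderm, where WT cells do express *Krt15*, it was at 13.6 and 3.60 CPM in null and 23.5 and 19.3 CPM in WT libraries at E8.5. At E9.5 it was at 2.37 to 11.9 CPM against 10.7 to 31.2 CPM, and the groups overlapped. The log2 fold changes were -1.04 and -0.87, and neither was called (edgeR adjusted p of 0.997 and 1.00). The E9.5 fit used 2 null and 3 WT libraries, while the ranges include smaller libraries. Surface ectoderm was picked for its high WT level, which also helped *Krt15* pass the filter on low counts. No support for a lower level is drawn from these fits. Haemoglobin in these cells was at 1087 to 1149 CPM in WT and 268 to 1088 CPM in null libraries of E8.5 and at 234 to 3921 against 9.22 to 55.3 CPM in those of E9.5, and its part in the difference was not tested.

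**Figure D3:**
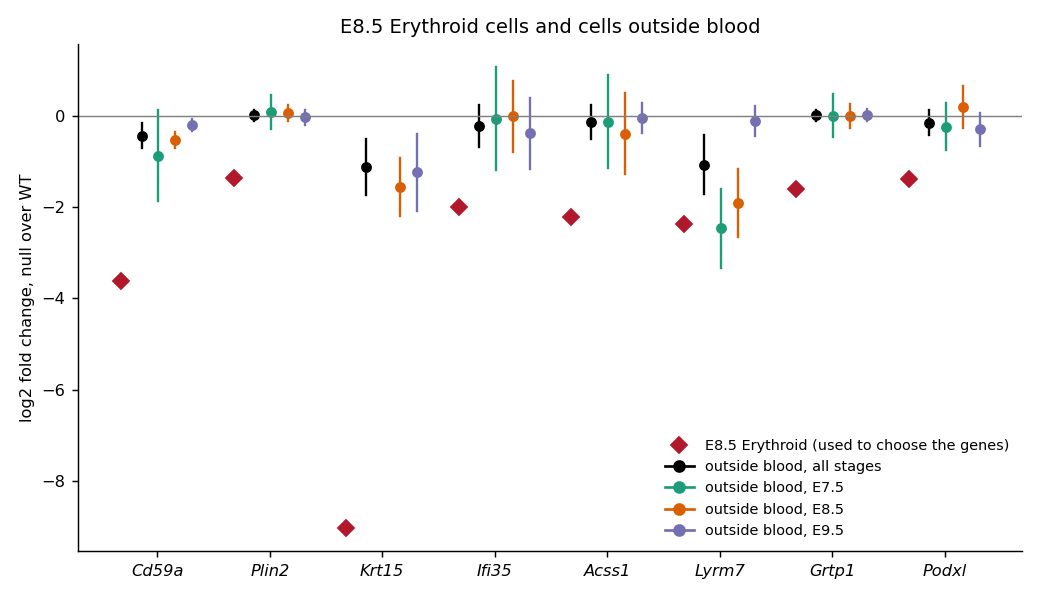
log2 fold change of null over WT for the 8 genes in E8.5 Erythroid cells (red diamonds, the contrast that chose the genes) and over all cells outside blood, for all stages together and for each stage (circles with 95% intervals from edgeR, *Krt15* not tested at E7.5). *Plin2* and *Grtp1* lie at 0 outside blood, *Lyrm7* at E7.5 is as low as in E8.5 Erythroid cells, and *Podxl* at E8.5 lies above 0 at 0.19.

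Cell types were also weighted equally. For each library log2(CPM + 1) was averaged over the cell types that had more than 15 cells in every library of the stage, 6 at E7.5, 19 at E8.5 and 20 at E9.5, and genotype labels were permuted within stages. The null minus WT difference was -0.44 for *Cd59a* (exact two-sided permutation test, p = 0.00159), -0.43 for *Krt15* (p = 0.00238), -0.88 for *Lyrm7* (p = 0.0175), -0.18 for *Ifi35* (p = 0.0389) and -0.21 for *Podxl* (p = 0.0397). It was -0.10 for *Acss1* (exact permutation p = 0.0952), 0.03 for *Plin2* (p = 0.613) and -0.04 for *Grtp1* (p = 0.601). The smallest p that the 2520 arrangements allow is 0.000794, the 8 p are not adjusted, and 10.3% of all genes were lower at p under 0.05 in the same test. This average rests on log2(CPM + 1), which understates changes of genes as low as *Lyrm7*.

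Taken cell type by cell type outside blood, the 8 genes gave 234 edgeR tests at the study's thresholds (adjusted p under 0.05 and more than 2-fold), of which 1 passed, against 0.105% of all tests of these cell types. It was *Cd59a* in E7.5 Lateral plate mesoderm, the mesoderm that lines the body cavity and gives rise to limb, heart and vessel precursors. There *Cd59a* was at 4.68 and 4.14 CPM in null and 19.9 and 17.3 CPM in WT libraries (log2 fold change -1.998, SE 0.29, edgeR adjusted p = 0.00221). Without 1 library the log2 fold change ran from -2.13 to -1.91. Such a fit leaves 1 library in a genotype, so no p is given for it. Erythroid markers summed to 5.80 to 27.3 CPM in null and 9.11 to 16.02 CPM in WT libraries of these cells, and yolk sac endoderm markers to 5.80 to 8.61 against 19.4 to 39.9 CPM. Visceral endoderm, which lines the yolk sac, was the WT cell type of E7.5 with the highest *Cd59a*, and the part of its RNA in this difference was not tested.

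*Cd59a* was tested in 60 such cell types with a negative log2 fold change in 43, of which 15 had an unadjusted p under 0.05, as had none of the 17 positive ones. Over all genes in the same cell types 50.1% of tests were negative, and 2.65% were negative and 2.68% positive with an unadjusted p under 0.05. The cell types share the same 16 libraries, so these tests do not stand for separate samples. Its median log2 fold change was -0.80 over 6 types of E7.5, -0.57 over 18 types of E8.5 and -0.21 over 36 types of E9.5. In E8.5 YS mesothelium (yolk sac mesothelium) it was at 64.1 and 54.1 CPM in null and 115 and 124 CPM in WT libraries (log2 fold change -0.95, edgeR adjusted p = 0.0438), which fell just short of 2-fold. Whether the change went with the WT level was not tested. In E8.5 Mesenchyme *Cd59a* was at 86.1 and 86.5 CPM in null and 185 and 116 CPM in WT libraries (-0.79, edgeR adjusted p = 0.842). In E9.5 Sclerotome it was at 11.2 to 14.3 against 11.04 to 13.6 CPM and overlapped.

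**Figure D4:**
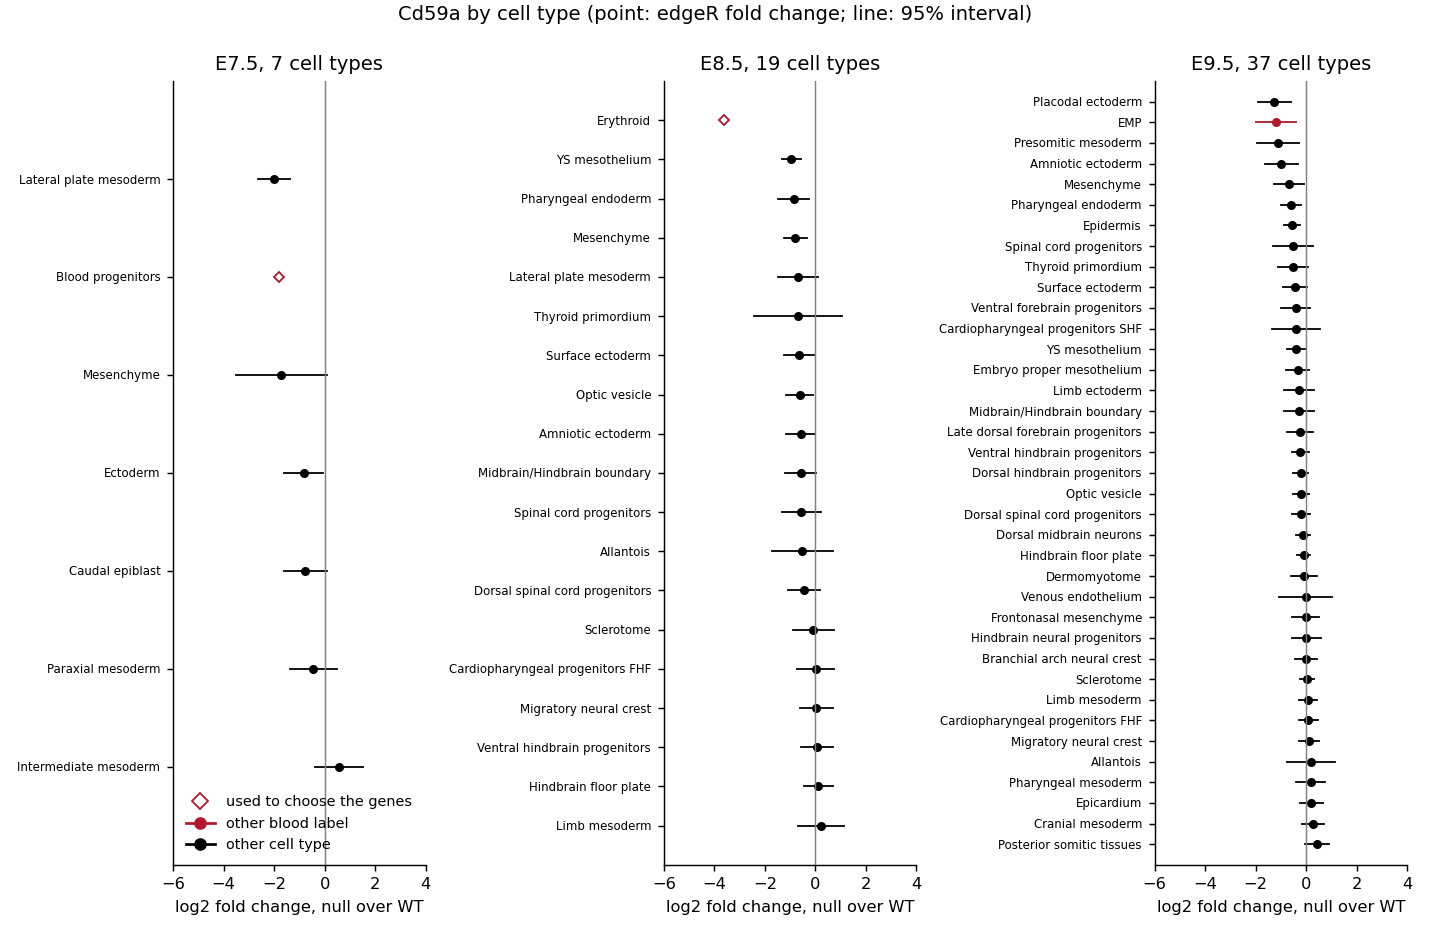
log2 fold change of *Cd59a*, null over WT, in each cell type tested at each stage (circles, with 95% intervals from edgeR as lines), sorted by value, blood labels in red. Open diamonds without an interval are the labels of the contrast that chose the gene. Most other points lie below 0, and the median of the types outside blood is at -0.80 for E7.5 and -0.21 for E9.5.

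*Lyrm7* passed the filter on low counts in 3 cell types outside blood at E7.5, 4 at E8.5 and none at E9.5, so it could be tested only where WT cells were high, and its levels there are given without a test. In E7.5 Ectoderm it was at 0.251 and 0.464 CPM in null and 4.03 and 3.75 CPM in WT libraries, and in E8.5 Sclerotome at 0.469 and 2.64 against 7.28 and 6.71 CPM. *Plin2*, tested in 61 types, had a negative log2 fold change in 32 and a positive one in 29, and none passed. It was negative for *Podxl* in 37 of 52 and for *Grtp1* in 24 of 43 types, and none passed. *Krt15*, *Acss1* and *Ifi35* were testable in only 5, 5 and 1 types.

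In the other blood labels the members differed in both directions, and differences between cell types were not tested. In the few E8.5 cells labelled MEP, 23 and 3 in null and 8 and 14 in WT libraries, *Cd59a* was at 21.9 and 10.2 CPM in null and 208 and 147 CPM in WT, and *Podxl* at 10.24 and 10.23 against 35.2 and 36.1 CPM. *Lyrm7* had 1 UMI in null against 12.8 and 12.02 CPM in WT, and *Krt15* 0 UMIs against 28.8 and 6.01 CPM. *Grtp1* was at 30.7 and 20.5 CPM in null against 31.98 and 57.1 CPM in WT, and *Acss1* at 5.85 and 0 against 6.40 and 9.02 CPM. In these 6 genes every null library was below every WT library, as in 18.6% of the 7896 genes with a mean of at least 5 CPM, while *Plin2* and *Ifi35* overlapped. One null library held 3 cells, and 2 libraries against 2 allow no exact permutation p below 0.333. Haemoglobin in these MEP cells was at 64235 and 91436 CPM in null and 90101 and 55108 CPM in WT libraries. They thus share erythroid content with the cells used to choose the genes, and its part in these levels was not tested. In Megakaryocyte progenitors, the precursors of platelets, *Cd59a* at E9.5 was at 23.6, 47.2, 139 and 29.5 CPM in null libraries of 3 to 16 cells and at 143, 226, 258 and 201 CPM in WT libraries of 10 to 34 cells. The highest null value lay under the lowest WT value, as for 2.04% of the 8884 genes with a mean of at least 5 CPM (exact permutation p = 0.0286 on log2(CPM + 1), the smallest that 4 against 4 allows, and 0.229 adjusted over the 16 tests of these genes in Megakaryocyte progenitors and EMP). At E8.5 *Cd59a* was at 43.8 and 13.4 CPM in null, the second from 2 cells, and 249 and 227 CPM in WT libraries, without overlap (15.2% of genes). *Ifi35* (0 to 9.64 against 22.5 to 24.7 CPM) and *Grtp1* (0 to 22.8 against 29.6 to 41.2 CPM) did not overlap there either. *Lyrm7* was at 0 to 0.876 against 3.56 to 12.4 CPM, from 1 UMI in null and 6 UMIs in WT cells. *Plin2* and *Podxl* overlapped at that stage. The other detected members overlapped in E9.5 Megakaryocyte progenitors, with *Plin2* at 34.7 to 101 CPM in null and 32.9 to 90.7 CPM in WT, and *Grtp1* at 23.6 to 46.3 against 32.9 to 46.4 CPM. Haemoglobin in these cells ranged from 347 to 6268 CPM in null and 1378 to 28338 CPM in WT libraries. Myeloid markers ranged from 0 to 504 CPM in null and 21.4 to 146 CPM in WT libraries, with *Tyrobp* at 176 against 19.7 CPM. The part of either in the *Cd59a* difference was not tested. *Krt15* was at 0 CPM in all 8 libraries.

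The EMP label is named for yolk sac progenitors of the second wave that give rise to red, megakaryocytic and myeloid cells. In E9.5 cells under this label *Acss1* went the opposite way from Erythroid cells. It was at 22.2, 41.8, 23.2 and 20.1 CPM in null libraries A to D, of 71, 8, 14 and 20 cells, and at 4.98, 3.94, 8.14 and 3.13 CPM in WT libraries of 22 to 50 cells. Null libraries did not overlap with WT libraries, as for 2.77% of 9100 genes that were higher in null. With the 2 null libraries of more than 15 cells, the log2 fold change was 2.10 (SE 0.34, edgeR adjusted p = 0.0359), with 0.0912% of 8771 genes called higher in these cells. *Acss1* passed the filter on low counts with the null libraries, where it was high, included, so the call is no independent support for this direction. Over all 8 libraries the exact permutation p on log2(CPM + 1) was 0.0286, and 0.229 adjusted over the 16 tests. The call was lost without null library A (edgeR adjusted p = 0.199) or D (0.0597) and without WT library A (0.112) or B (0.119), and without null A or D the spread came from the WT libraries alone, since 1 null library was left. The log2 fold change stayed between 1.93 and 2.38.

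Single markers differed between the genotypes over all cells under the EMP label, which was not tested. The sums of each marker list overlapped between null and WT libraries. Of the myeloid markers, *Tyrobp* was at 553 CPM in null and 446 CPM in WT cells and *Csf1r* at 147 and 98.4 CPM. Whether the label held cells already committed to the myeloid line was not tested. *Mpo*, a marker of early granulocytes, was at 64.5 CPM in null and 289 CPM in WT cells, *Cx3cr1*, a marker of macrophage precursors, at 287 against 130 CPM and *Gata1* at 5.17 against 15.3 CPM. Myeloid markers summed to 951 to 1737 CPM in null and 859 to 1432 CPM in WT libraries, megakaryocyte markers to 312 to 481 against 211 to 426 CPM and endothelial markers to 178 to 439 against 164 to 214 CPM, whose part in the *Acss1* difference was not tested. The erythroid markers summed to 46.5 to 1850 CPM in null and 307 to 1175 CPM in WT. In the same cells *Ifi35* was at 23.5 to 38.8 CPM in null and 23.2 to 30.7 CPM in WT libraries and *Plin2* at 63.7 to 325 against 92.8 to 192 CPM, and both overlapped. *Cd59a*, at 1.29 to 20.9 CPM in null and 13.03 to 28.1 CPM in WT libraries, overlapped too (log2 fold change -1.19, edgeR adjusted p = 0.367). In E8.5 EMP, with 44 null and 48 WT cells, *Cd59a* was at 13.9 and 40.4 CPM in null and 69.6 and 120 CPM in WT libraries, without overlap (15.2% of genes), and *Acss1* had 3 UMIs in null and 1 UMI in WT cells.

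**Figure D5:**
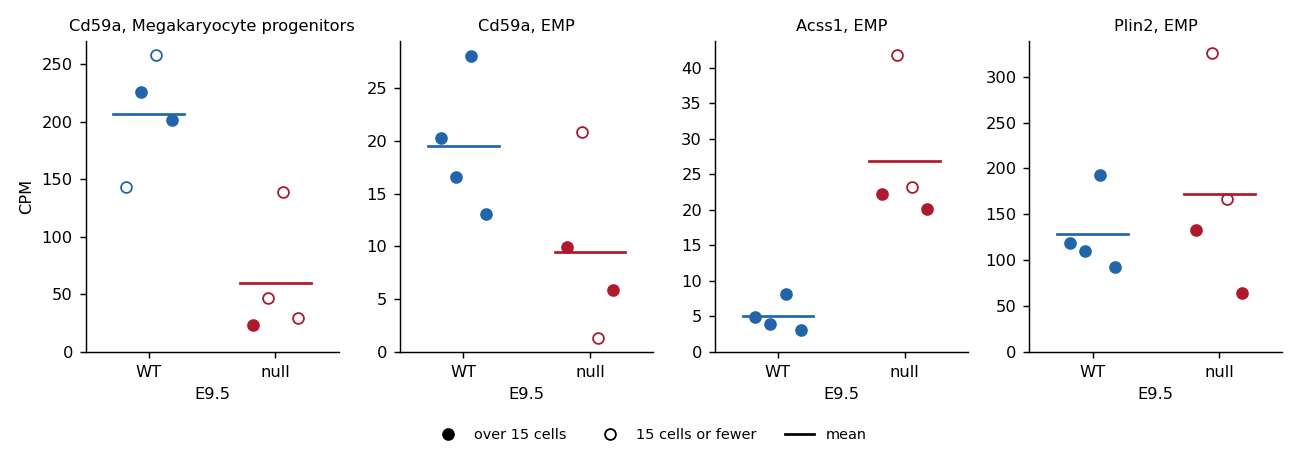
CPM at E9.5 in Megakaryocyte progenitors (*Cd59a*) and EMP (*Cd59a*, *Acss1*, *Plin2*), 1 point per library, open where the library had 15 cells or fewer, with lines at the mean of the 4 libraries and each axis from 0. *Cd59a* is lower in all null libraries of Megakaryocyte progenitors, *Acss1* is higher in all null libraries of EMP (20.1 to 41.8 against 3.13 to 8.14 CPM), and *Plin2* overlaps.

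Few genes that share a process with the members passed the test, and in E8.5 Erythroid cells, with 2 libraries against 2, few of any genes did. Of the members, which were chosen on this contrast, *Plin2* (log2 fold change -1.36) and *Podxl* (-1.39) passed there, and nothing is read from this. *Cd59a* (-3.63), *Lyrm7* (-2.38), *Krt15*, *Ifi35*, *Acss1* and *Grtp1* did not pass. The absence of calls in these lists thus tells little. In E8.5 Erythroid cells none of the other tested genes of complement control (4), lipid droplets (10), keratins (4), interferon response (8), acetyl-CoA supply (9), complex III (14), TBC-domain Rab regulators (18) and CD34-type sialomucins (4) passed the study's thresholds, which 0.069% of genes there met in the lower direction, with median log2 fold changes from -0.88 (keratins) to 0.15 (sialomucins) and 0.01 over all genes. Of 8 genes listed for STAT signalling, 1 passed, *Pim1* (log2 fold change -1.51), and their median was -1.61. The 8 include *Stat3* itself (-1.93), *Stat5a* (-2.23), which overlaps *Stat3*, and *Stat5b* (-1.38). The median is thus not one of target genes alone. The other genes of this list ran from -2.63 for *Cish* to -0.74 for *Bcl2l1*, and of these only *Pim1* passed. Outside blood the same lists held 1 gene called higher in null cells, 1 of 14 complex III genes. It was *Uqcc2*, an assembly factor (log2 fold change 0.20, edgeR adjusted p = 0.0346). Of the 9 STAT genes 2 were called lower, *Stat3* (-1.499, edgeR adjusted p = 5.38e-07) and *Stat5b* (-0.33, 0.0489). Over all genes tested outside blood 1.28% were called lower. *Stat3* RNA was at 0.976 CPM in null and 4.19 CPM in WT libraries at E7.5, at 1.33 and 4.08 CPM at E8.5 and at 2.10 and 5.25 CPM at E9.5. Its 3′ tags may lie outside the replaced exons. The medians of the lists outside blood lay between -0.05 and 0.11, and none of the 14 other complex III genes was called lower.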

How the data were processed

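The authors mapped the 10x Genomics 3′ reads with Cell Ranger to mm10 with the GRCm38.p5 annotation plus tdTomato and deposited whole-number UMI counts per gene and cell, with a cell table that gives stage, sort gate, library, doublet call, label-transferred cell type and, in percent, the mitochondrial and ribosomal RNA of each cell. Cells had passed the authors' limits on reads, genes and mitochondrial and ribosomal RNA, 3395 doublet calls and 596 WT-sorted singlets with a tdTomato UMI were left out here, and groups come from stage and sort gate.

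UMIs were summed per library, stage and cell type. Predicted, mitochondrial, ribosomal protein, haemoglobin, Y-linked and reporter genes and *Xist* and *Tsix* (8176 of 29453) stayed out of the fits, after the study's gene filter, except that imprinted genes, which the study also left out, were kept. Fits used edgeR 4.0.16 (robust quasi-likelihood, TMM, filterByExpr, Benjamini-Hochberg over all genes tested), with DESeq2 1.42.0 and limma-voom 3.58.1 as alternatives, in R 4.3.3. A cell type was tested where each genotype had 2 or more libraries with over 15 cells. SE and 95% intervals come from the quasi-likelihood p and its degrees of freedom. CPM are plain shares of the summed UMIs. Floors (3 counts) cover counting error only. The fit was tested on simulated data drawn from these counts. Embryo pool could not be used as a term, since no source ties a library to a pool.

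The 8 members and the gene lists were chosen with earlier results of these data known. Named besides the members were, for each member, the 3 genes of highest correlation over WT cell types, and list genes past the test outside blood. *Pim1*, *Stat5a*, *Cish* and *Bcl2l1* were named after their values were seen. The exact tests in EMP and Megakaryocyte progenitors and the non-overlap shares were added after seeing the data. Positions are GENCODE M21 on GRCm38.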

Additional observations from a re-analysis of the deposited data

Results flagged for a closer look

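*Podxl* outside blood was at 24.8 CPM in null library D of E9.5, whereas the other 3 null libraries lay between 16.98 and 18.3 CPM. The gap to the nearest library was 0.837 of the whole range, above Dixon's 95% limit for 4 samples. Chance alone takes about 5% of groups past that limit, and 16 groups were checked.

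*Acss1* was lower in every null library of E8.5 Erythroid cells and higher in every null library of E9.5 EMP, with a log2 fold change of 2.10 in EMP. The difference between the 2 cell types was not tested. At the same stage as EMP, E9.5 Erythroid cells had 0 to 12.4 CPM in null, from 1 UMI in 19 cells, and 21.5 to 31.7 CPM in WT libraries. At the other stage, E8.5 EMP had 1.85 and 5.77 CPM in null and 1.04 and 0 CPM in WT libraries, from 3 UMIs and 1 UMI.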

How the results depend on the processing

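Counts of members called outside blood were 0 over all stages and at each single stage. Over all stages they became 3 with DESeq2, 1 with limma-voom, 1 with extra-embryonic labels added, 1 with all genes in the fit, and 0 to 2 without 1 library. At E7.5 they became 1 with DESeq2, 1 without a filter on low counts, 2 with extra-embryonic labels and 0 to 1 without 1 library, and at E8.5 2 with DESeq2, 2 without the filter and 0 to 1 without 1 library. Per cell type outside the erythroid path, other blood labels included, the 1 call of E7.5 became 2 with limma-voom, 4 without the filter and 0 to 2 without 1 library, the 0 calls of E8.5 became 1 with no fold threshold and 0 to 2 without 1 library, and the 1 call of E9.5 (*Acss1* in EMP, a blood label) became 3 without the filter, 0 with over 50 cells a library and 0 to 2 without 1 library. The 5 members lower as averages over cell types became 3 with log2(CPM + 5), 2 with over 50 cells and 3 to 6 without 1 library.

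*Cd59a*, *Lyrm7* and *Krt15* were lower outside blood over all stages in all 23 alternatives, past the threshold in 4, 1 and 7 of them. Those of *Krt15* included leaving out null library A or WT library B of E7.5 or null library A or WT library C of E9.5 (edgeR adjusted p 0.0187, 0.0274, 0.0411 and 0.0187), and those of *Cd59a* leaving out WT library B of E7.5 (0.045). The sign of values near 0 turned, and the cause was not tested. With extra-embryonic labels *Plin2* was at -0.020 and *Grtp1* at -0.12 over all stages, *Acss1* at 0.052, *Plin2* at -0.063 and *Grtp1* at -0.55 at E7.5, and *Grtp1* at 0.042 at E8.5 and -0.00097 at E9.5. With limma-voom *Grtp1* was at -0.014 at E7.5 and *Ifi35* at 0.032 at E8.5, and with null cells that held a tdTomato UMI *Grtp1* was at -0.0067 over all stages and *Ifi35* at 0.038 at E8.5. Without 1 library, log2 fold changes ran from -0.026 to 0.050 for *Plin2* and -0.027 to 0.045 for *Grtp1* over all stages. At E7.5 they ran from -0.63 to 0.10 for *Acss1*, -0.13 to 0.32 for *Plin2*, -0.52 to 0.12 for *Podxl* and -0.18 to 0.26 for *Grtp1*, at E8.5 from -0.027 to 0.39 for *Podxl*, -0.057 to 0.054 for *Grtp1* and -0.34 to 0.19 for *Ifi35*, and at E9.5 from -0.15 to 0.0050 for *Acss1*, -0.077 to 0.023 for *Plin2* and -0.013 to 0.048 for *Grtp1*. Averages over cell types ran from -0.011 to 0.057 for *Plin2* and -0.077 to 0.037 for *Grtp1*.

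No paired analysis was possible because no source ties a library to an embryo pool, so the library letters pair nothing. Depth limits *Krt15*, *Ifi35*, *Acss1* and *Lyrm7*, which had means by stage of 0.129 to 4.26 CPM outside blood and passed the filter on low counts in few cell types, and the E9.5 null blood cells, of which there were few.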
